A study of Mus musculus with 6 samples.

Results

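The genes described here are 44 genes of DNA replication and S phase, a list set by gene name and not by any measured value. They cover origin recognition and licensing, the MCM helicase, CDC45 and the GINS complex, the sliding clamp and its loader, the replicative polymerases and primase, single-strand binding and Okazaki fragment processing, deoxynucleotide synthesis, chromatin assembly, and cyclin E with the E2F factors. All 44 were among the 14777 genes in the deposited table, and all 44 passed the filter on low counts that left 14632 genes tested. RNA was sequenced from 3 libraries of dE2 Treg, labelled FOXP3 ΔE2 for the isoform that lacks exon 2, and from 3 libraries of FL Treg, labelled FOXP3 FL for the full-length isoform. Both groups were C57BL/6 mouse cells, and the age and sex of the mice are not given in the labels. In both, naive CD4 T cells had been turned into induced regulatory T cells over 3 days, on coated anti-CD3 (1 µg/ml) with 3 further agents. These were anti-CD28 at 1 µg/ml, human TGFβ at 5 ng/ml and human IL-2, the T cell growth factor, at 20 ng/ml. Per the labels more than 90% of the cells were FOXP3 positive at the end, and the rest are part of each library. The stated purpose was to compare how the 2 isoforms regulate target genes.

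Replication starts when the origin recognition complex, with CDC6 and CDT1, loads the ring of MCM2 to MCM7 onto DNA in G1. CDC45 and GINS then turn the ring into the moving helicase in S phase, and clamp, polymerases, flap endonuclease and ligase copy and seal the strands behind it. Most of these genes are classic targets of the E2F factors, which are held back by the retinoblastoma protein family until cyclin-dependent kinases inactivate it. T cells stimulated through CD3 and CD28 leave quiescence and divide, and the replication genes are then expressed at high levels.

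The start regions of 4 of the genes are printed here, with letters that resemble sites of E2F factors in capitals. Such letters were found in some of the 44 genes and not in others. Windows were taken for Orc1, Fen1, Mcm10, Cdc6 and E2f7, the genes with the smallest p in the test below. Mcm6 was added because it held the most matches. Fen1 and Mcm10 held no match and are not printed. Each window runs from 250 bases before to 50 after the RefSeq transcription start in GRCm38.p6, 5′ to 3′ on the strand of the gene, and capitals mark TTTCCCGC, TTTCGCGC, TTTGCCGC or TTTGGCGC on either strand. The windows are chr4:108579204-108579503 on the plus strand for Orc1, chr11:98907901-98908200 on the plus strand for Cdc6, chr10:110745189-110745488 on the plus strand for E2f7 and chr1:128359656-128359955 on the minus strand for Mcm6.
Orc1: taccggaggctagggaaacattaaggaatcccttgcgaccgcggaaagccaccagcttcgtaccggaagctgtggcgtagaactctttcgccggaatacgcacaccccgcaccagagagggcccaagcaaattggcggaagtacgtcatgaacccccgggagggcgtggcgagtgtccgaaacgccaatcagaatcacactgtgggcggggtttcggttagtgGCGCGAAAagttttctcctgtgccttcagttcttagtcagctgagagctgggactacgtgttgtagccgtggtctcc
Cdc6: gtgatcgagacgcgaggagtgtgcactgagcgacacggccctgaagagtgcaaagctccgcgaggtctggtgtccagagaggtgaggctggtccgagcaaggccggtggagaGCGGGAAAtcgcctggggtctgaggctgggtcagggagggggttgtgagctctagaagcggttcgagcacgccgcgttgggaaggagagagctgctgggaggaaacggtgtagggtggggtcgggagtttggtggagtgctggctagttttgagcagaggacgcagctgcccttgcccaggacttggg
E2f7: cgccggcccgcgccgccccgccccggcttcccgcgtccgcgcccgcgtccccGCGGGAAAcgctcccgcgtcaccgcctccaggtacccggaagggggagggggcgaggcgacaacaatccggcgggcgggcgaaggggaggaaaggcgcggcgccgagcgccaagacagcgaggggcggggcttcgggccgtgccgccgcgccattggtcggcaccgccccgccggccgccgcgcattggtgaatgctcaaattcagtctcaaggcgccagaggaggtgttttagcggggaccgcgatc
Mcm6: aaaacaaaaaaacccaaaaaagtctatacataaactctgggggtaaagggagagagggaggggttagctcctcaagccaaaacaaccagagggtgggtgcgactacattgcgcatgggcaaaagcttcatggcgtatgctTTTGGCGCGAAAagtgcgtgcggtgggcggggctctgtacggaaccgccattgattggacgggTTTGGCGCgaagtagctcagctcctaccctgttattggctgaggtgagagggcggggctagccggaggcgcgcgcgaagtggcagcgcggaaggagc
In Orc1 the match was TTTCGCGC, read on the opposite strand, at positions -27 to -20 from the start. Cdc6 and E2f7 each held TTTCCCGC on the opposite strand, at -138 to -131 and at -198 to -191. Mcm6 held TTTGGCGC at -110 to -103 and at -47 to -40, with TTTCGCGC on the opposite strand at -106 to -99, which overlaps the first of these.

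RefSeq start windows were found for 36 of the 44 genes, and 15 of these 36 (41.7%) held at least 1 of the E2F letter strings on either strand. The share was 4.81% of the 9446 tested genes with a window and 2.6% of all 27025 genes in the RefSeq table. The strings were found in Cdt1, E2f2, Gins3, Lig1, Mcm3, Mcm5, Mcm7, Pola1, Pold1, Pole2 and Rfc3 besides the 4 printed genes. Mcm10 and Fen1 were near the top of the range of change, and their windows held no full match. The Mcm10 window ends in the letters TTTGGCG, so a TTTGGCGC that runs past its end could not have been found. E2F letters were present both in Orc1, at the upper end of the range of change, and in E2f7, at the lower end. A match of letters is a description of the sequence and not a measured binding site.

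The libraries held 13307155 to 16140432 counts assigned to genes. Foxp3 itself had 436, 403 and 335 CPM (read counts scaled to a common library total and for library composition) in dE2 libraries 1, 2 and 3, against 447, 397 and 337 in FL libraries 1, 2 and 3, a gene-level count that cannot show whether exon 2 is present. Summed markers of T cells were at 6343 to 7398 CPM in dE2 and 4790 to 5594 in FL libraries. Those of Treg were at 6291 to 8054 in dE2 and 6513 to 7226 in FL libraries. Most of the Treg sum was 1 gene, Il2ra, at 4538 to 6088 CPM in dE2 and 4827 to 5373 in FL libraries. Markers of the labelled cell type were thus present, but the Treg sum says little of the other Treg genes. Summed markers of B cells (Pax5 is not listed in the table) were at 15.3 to 34.7 CPM in dE2 and 15.6 to 34.2 in FL libraries, and those of CD8 T cells at 50.8 to 138 in dE2 and 29.0 to 53.0 in FL libraries. Myeloid markers (2 of 6 listed in the table) were at 8.97 to 22.6 CPM in dE2 and 4.52 to 7.86 in FL libraries. NK cell markers (3 of 4 listed) were at 21.5 to 30.6 CPM in dE2 and 15.9 to 26.3 in FL libraries, and γδ T cell markers (2 of 3) at 8.42 to 15.6 in dE2 and 4.76 to 10.2 in FL libraries. Dendritic cell markers (1 of 4) and erythroid markers (2 of 4) stayed under 8 CPM in every library, and none of 4 fibroblast markers was listed. Cd4, a T cell marker, had 1026, 1387 and 1318 CPM in dE2 libraries 1, 2 and 3, against 832, 844 and 976 in FL libraries 1, 2 and 3. Its log2 fold change of dE2 over FL was 0.49 ± 0.14 (SE, adjusted p = 0.0438 by edgeR's quasi-likelihood test). That call was lost without dE2 library 2 (0.250) and with library size alone (0.108), among other settings. The part of any of these differences in the results below was not tested.

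The replication genes were expressed at similar levels in dE2 and FL Treg. The test called 1 of the 44, Orc1, higher in dE2 cells, and some settings described below lost that call. By edgeR's quasi-likelihood test with Benjamini-Hochberg adjustment over all 14632 genes, 1 of 44 was higher at an adjusted p under 0.05 (2.27%), where 3.75% of all genes tested were higher. None of the 44 was lower, where 2.43% of all genes tested were lower and 6.17% passed in either direction. At an unadjusted p under 0.05, 6 of the 44 were higher and 1 was lower, against 11.7% and 10.8% of all genes. A single gene of the 44 makes up 2.27%. In this fit the counts past the adjusted threshold were therefore too small to set the list apart from genes in general. With the replicate number as a block, described below, 7 of the 44 (15.9%) were higher, where 11.5% of all genes were. The labels do not say whether the 3 libraries of a group came from separate mice or cultures, so each p measures only the spread between these libraries.

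The direction across the list was less even than in genes as a whole. The log2 fold change of dE2 over FL was above 0 in 31 of 44 genes (70.5%), against 49.5% of all genes tested, and its median was 0.11, against 0.00 for all genes (-0.0043). The changes ran from -0.27 in E2f7 to 0.53 in Orc1. This direction depended on the scaling: with library size alone and no composition factor, 21 of 44 were above 0 and the median was -0.03, while the median of all genes moved to -0.14. Relative to all genes the median of the 44 was 0.11 higher under either scaling. A change of scaling moves all genes by nearly the same amount, so this gap could not depend on it. The gap did depend on the libraries, at -0.037 with dE2 libraries 1 and 2 both left out. The 44 summed to 7958, 8400 and 6752 CPM in dE2 libraries 1, 2 and 3, against 7130, 7276 and 6613 in FL libraries 1, 2 and 3, so that dE2 library 3 lay within the FL range. In RNA from a whole culture, more or fewer cells in S phase and more or less of these RNAs per cell cannot be told apart.

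**Figure D1:**
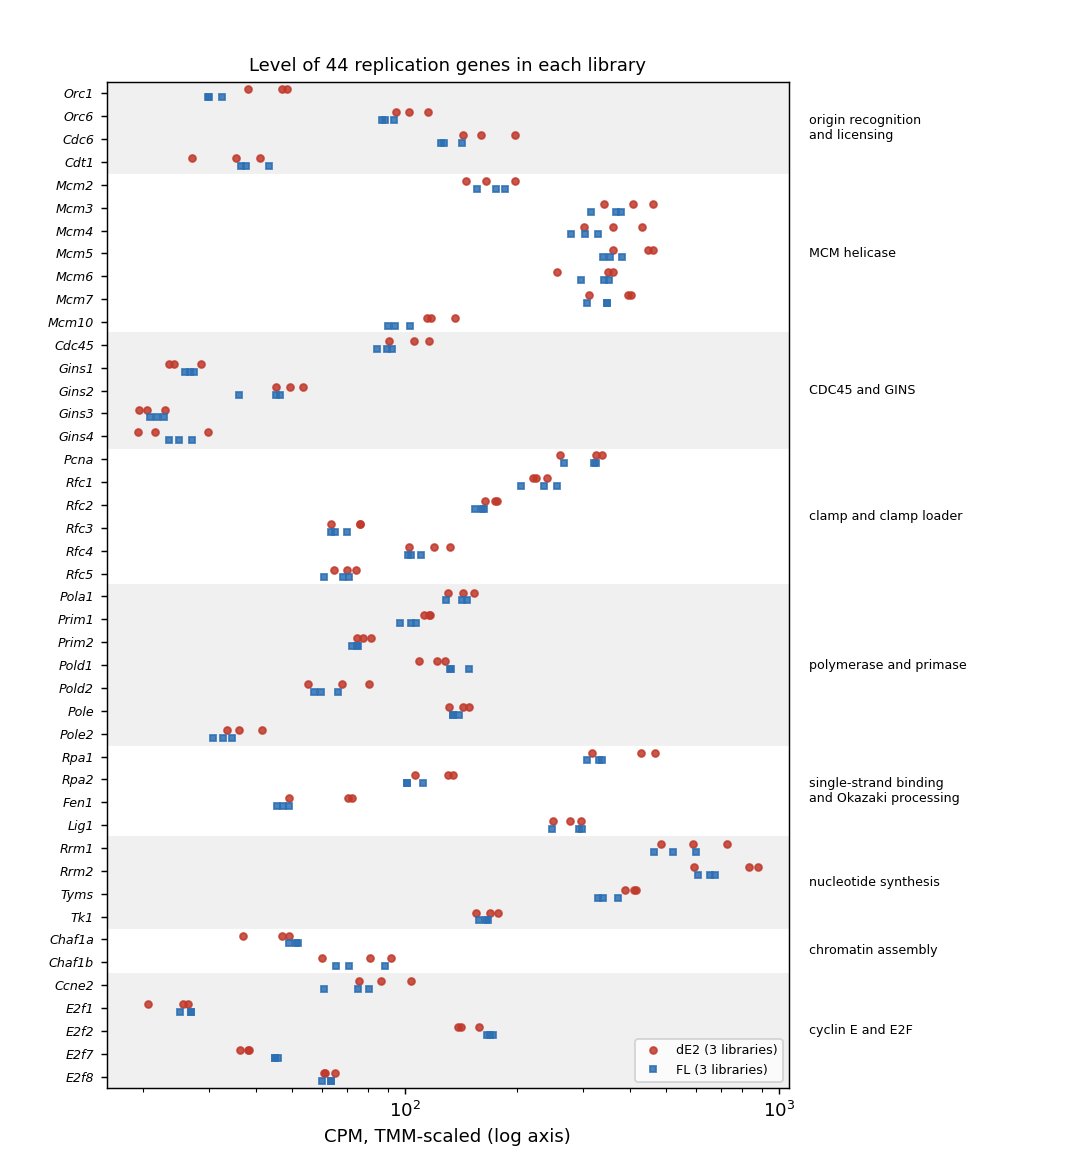
Level of each of the 44 replication genes in CPM scaled for library composition (horizontal log axis), grouped by role, with the 3 dE2 libraries as red circles and the 3 FL libraries as blue squares. The ranges of dE2 and FL overlap in 33 genes, dE2 lies wholly above in 8 and wholly below in 3.

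Within the group, levels per counted exon length (FPKM, CPM per kilobase) spanned a wide range that was alike in both groups of cells. Rrm2, the small subunit of ribonucleotide reductase, which makes deoxynucleotides, was the highest at 277 ± 55.7 FPKM in dE2 and 234 ± 12.8 in FL cells (SD, n = 3 each). Pcna, the sliding clamp that holds polymerases on DNA, followed at 128 ± 17.3 FPKM in dE2 and 127 ± 13.5 in FL cells. Mcm3, Mcm5 and Mcm4 came next at 108 ± 15.8, 106 ± 13.5 and 102 ± 18.1 FPKM in dE2 and 94.2 ± 9.0, 89.6 ± 5.35 and 84.6 ± 7.0 in FL cells, with neighbours closer than their spread. The lowest was E2f7 at 4.18 ± 0.135 FPKM in dE2 and 5.03 ± 0.0575 in FL cells. Lengths are those of all counted exons, which runs long for a gene such as Rrm1 at 11012 bases, so its 54.5 ± 11 FPKM in dE2 and 48.1 ± 6.30 in FL cells set against Rrm2 depends on that length.

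Orc1, the largest subunit of the origin recognition complex and its ATPase, was the gene that passed the test. It lies at chromosome 4, positions 108579423 to 108614833 on the plus strand (mm10), with the identifier ENSMUSG00000028587.18. Orc1 had 38.2, 47.0 and 48.4 CPM in dE2 libraries 1, 2 and 3, against 29.8, 29.9 and 32.4 CPM in FL libraries 1, 2 and 3. All 3 dE2 libraries were above all 3 FL libraries, and the lowest dE2 value came from library 1. The log2 fold change was 0.53 ± 0.13 (SE, 95% interval 0.27 to 0.79), a ratio of 1.45, with an adjusted p of 0.0149 by edgeR's quasi-likelihood test. In the authors' deposited table Orc1 had a log2 fold change of 0.53 and a false discovery rate of 0.00482, and it was the only one of the 44 under 0.05, where 4.91% of the listed genes were higher and 3.26% lower. The call was lost without dE2 library 2 (adjusted p = 0.0938), without FL library 1 (0.0625), without FL library 2 (0.0609) and with library size alone (0.0598), by the same edgeR test, while the log2 fold change stayed between 0.39 and 0.66 over the settings run. Gm12743 shares 10.8% of Orc1's exon bases on the opposite strand, and the counts carry no strand; it had 5.79 ± 0.70 CPM in dE2 and 4.49 ± 1.53 in FL libraries (SD, n = 3 each).

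The other licensing genes had values mostly above FL without passing the test. Cdc6, the ATPase that joins the origin complex to load MCM, had 160, 197 and 143 CPM in dE2 libraries 1, 2 and 3, against 127, 142 and 125 in FL libraries 1, 2 and 3. Its groups did not overlap, by the narrow gap between 143 in dE2 library 3 and 142 in FL library 2, and its log2 fold change was 0.34 ± 0.13 with an adjusted p of 0.113 by edgeR's quasi-likelihood test. Orc6, another subunit of the origin complex, had 102, 115 and 94.6 CPM in dE2, against 87.1, 93.8 and 88.8 in FL libraries, again without overlap (log2 fold change 0.21 ± 0.12, adjusted p = 0.290, edgeR). Cdt1, which brings MCM to the origin and is destroyed in S phase, had the opposite sign, with 40.9, 27.0 and 35.3 CPM in dE2, against 37.6, 43.4 and 36.6 in FL libraries (log2 fold change -0.19 ± 0.14, adjusted p = 0.468, edgeR). The 4 genes summed to 342, 387 and 322 CPM in dE2, against 282, 309 and 283 CPM in FL libraries. These sums did not overlap, at a ratio of 1.2, but with library size alone they did, at a ratio of 1.09.

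**Figure D2:**
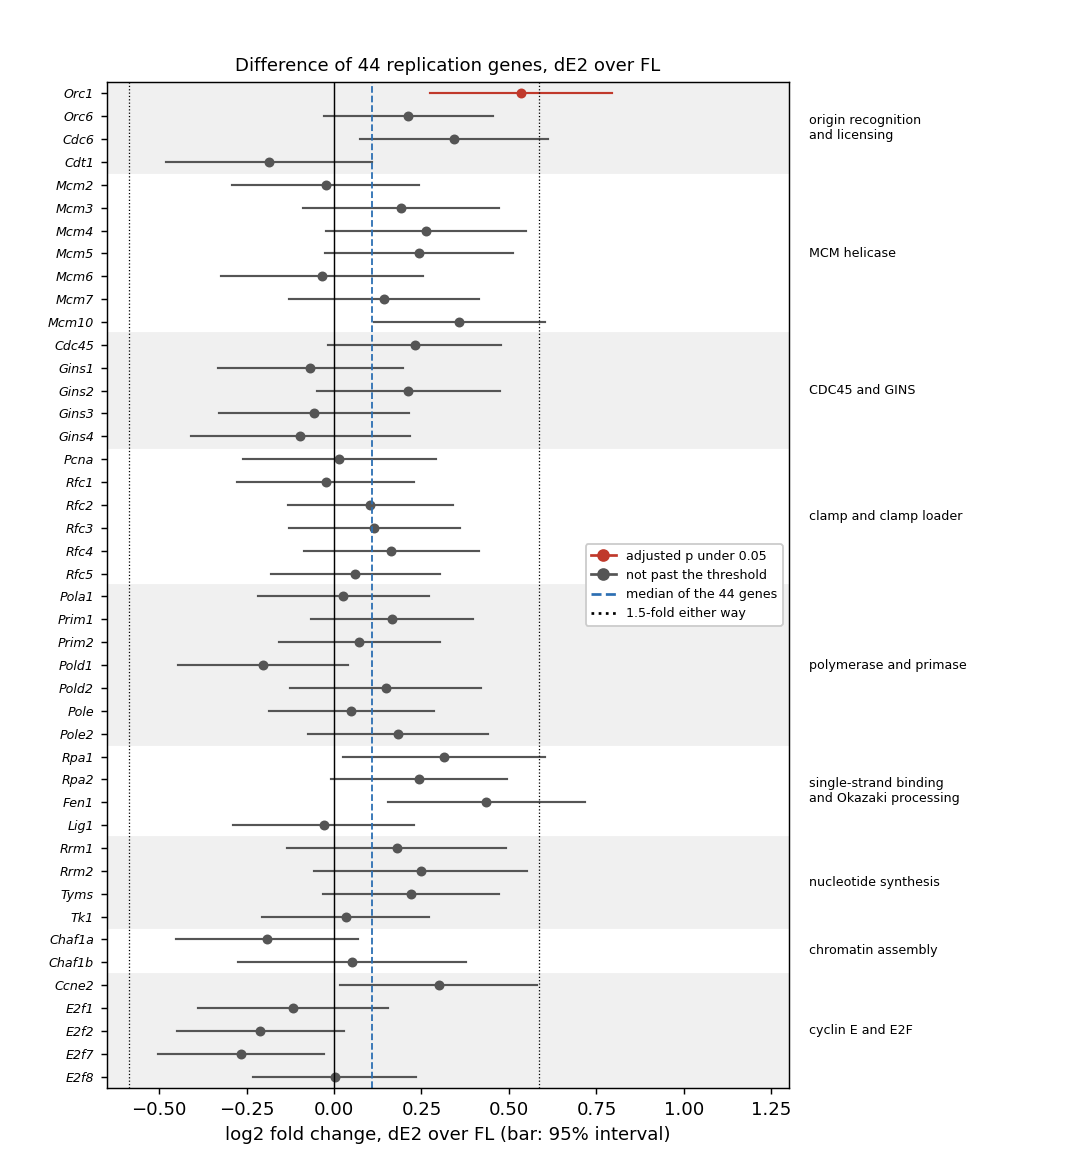
Log2 fold change of dE2 over FL for each of the 44 replication genes with its 95% interval (horizontal axis), grouped by role, with Orc1 in red as the gene past an adjusted p of 0.05. The dashed line is the median of the 44 at 0.11, the dotted lines are 1.5-fold either way, and the intervals of 39 genes lie within them.

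None of the 7 genes of the MCM group passed the test. For the 6 subunits of the ring, MCM2 to MCM7, the sums were 2168, 2272 and 1718 CPM in dE2 libraries 1, 2 and 3, against 1888, 1973 and 1693 in FL libraries 1, 2 and 3. In both groups library 3 was the lowest, and dE2 library 3 lay inside the FL range. The subunits did not share 1 direction: log2 fold changes were 0.26 for Mcm4, 0.24 for Mcm5, 0.19 for Mcm3 and 0.14 for Mcm7, but -0.02 for Mcm2 and -0.03 for Mcm6, with standard errors of 0.13 to 0.14. With library size alone the ratio of the summed ring genes was 1.01, against 1.11 with the composition factor. Mcm4, for one, had 361, 431 and 302 CPM in dE2, against 304, 329 and 279 CPM in FL libraries, with dE2 library 3 below FL library 1. Mcm10, which is not part of the ring and helps to activate it, had 118, 137 and 115 CPM in dE2, against 90.3, 103 and 94.2 CPM in FL libraries. All dE2 libraries were above all FL libraries for Mcm10, with a log2 fold change of 0.36 ± 0.12 and an adjusted p of 0.0731 by edgeR's quasi-likelihood test.

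CDC45 and GINS complete the helicase, and none of these 5 genes passed the test. Cdc45 had 106, 116 and 91.0 CPM in dE2 libraries 1, 2 and 3, against 89.5, 92.6 and 84.4 in FL libraries 1, 2 and 3, with dE2 library 3 inside the FL range (log2 fold change 0.23 ± 0.12, adjusted p = 0.260, edgeR). The GINS subunits are present in equal number in the complex, but their log2 fold changes had different signs, at 0.21 for Gins2 and at -0.07, -0.06 and -0.10 for Gins1, Gins3 and Gins4. Gins2 shares 67.3% of its exon bases with Gse1 on the opposite strand, so its count is uncertain. The intervals of all 5 lay within 1.5-fold either way.

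None of the 6 clamp and clamp loader genes or the 7 polymerase and primase genes passed the test. Pcna had 336, 325 and 259 CPM in dE2 libraries 1, 2 and 3, against 325, 320 and 267 in FL libraries 1, 2 and 3. Library 3 was the lowest in both groups, and the log2 fold change was 0.02 ± 0.13, with a 95% interval of -0.26 to 0.29. A processed copy of this gene, Pcna-ps2, is also in the table, so some reads may have been split between them. Rfc1 to Rfc5, the subunits of the loader that opens the clamp, ran from -0.02 in Rfc1 to 0.16 in Rfc4 on the log2 scale, and Rfc2 was wholly above FL, with 176, 174 and 164 CPM in dE2 and 154, 161 and 163 in FL libraries. The 7 polymerase and primase genes summed to 694, 714 and 695 CPM in dE2 and 676, 710 and 667 in FL libraries, a ratio of 1.02, or 0.933 with library size alone. Prim1, the catalytic subunit of primase, had 112, 117 and 116 CPM in dE2 and 97.1, 104 and 107 in FL libraries, all dE2 above all FL, at a log2 fold change of 0.16 ± 0.11. Pold1, the catalytic subunit of polymerase delta, was wholly below, with 128, 109 and 122 CPM in dE2 and 132, 149 and 133 in FL libraries, at -0.20 ± 0.12 (adjusted p = 0.317, edgeR). Its accessory subunit Pold2 was at 0.15, polymerase alpha's Pola1 at 0.03, the second primase subunit Prim2 at 0.07, and polymerase epsilon's Pole and Pole2 at 0.05 and 0.18, and the groups overlapped in each of these 5.

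Genes that bind single strands and finish Okazaki fragments included several of the larger values, with none past the test. Fen1, the endonuclease that cuts the flap off each fragment, had 70.4, 72.3 and 49.1 CPM in dE2 libraries 1, 2 and 3, against 47.3, 45.5 and 49.1 in FL libraries 1, 2 and 3. Libraries 1 and 2 of dE2 stood apart from all others, while dE2 library 3 exceeded FL library 3 by less than the rounding, and the log2 fold change was 0.44 ± 0.14 with an adjusted p of 0.0595 by edgeR's quasi-likelihood test. Of Fen1's exon bases 78.8% are shared with Gm10143 on the opposite strand, which had 17.4 ± 2.89 CPM in dE2 and 12.8 ± 3.71 in FL libraries (SD, n = 3 each), so the count of Fen1 is uncertain. Rpa1, the large subunit of the single-strand binding protein, had the same shape, with 428, 466 and 318 CPM in dE2 and 331, 336 and 307 in FL libraries (log2 fold change 0.31 ± 0.14, adjusted p = 0.181, edgeR). Its partner Rpa2 was at 0.24 ± 0.12, with dE2 library 3 inside the FL range. Lig1, the ligase that seals the fragments, was at -0.03 ± 0.13, with 277, 295 and 249 CPM in dE2 and 292, 298 and 248 in FL libraries.

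**Figure D3:**
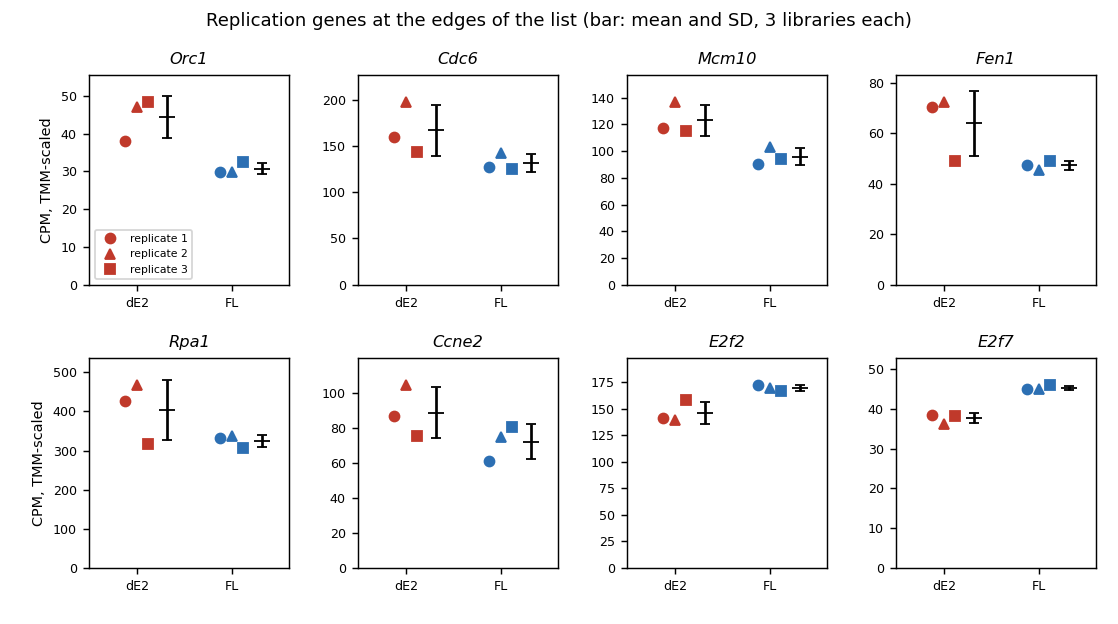
CPM scaled for library composition (vertical axes, from 0) of 8 replication genes at the ends of the range, with dE2 libraries in red to the left of FL libraries in blue, a marker shape for each replicate number, and the mean and SD as black bars. Orc1, Cdc6, Mcm10 and Fen1 are wholly above FL, E2f2 and E2f7 wholly below, and in Fen1 and Rpa1 dE2 library 3 sits beside the FL libraries.

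The 4 deoxynucleotide synthesis genes were all above 0 on the log2 scale, and none passed the test. Rrm2 had 834, 880 and 592 CPM in dE2 libraries 1, 2 and 3, against 656, 678 and 609 in FL libraries 1, 2 and 3. Libraries 1 and 2 of dE2 were above every FL library and library 3 was below every one, at a log2 fold change of 0.25 ± 0.15 (adjusted p = 0.332, edgeR). Rrm1, the large subunit of the same enzyme, had 591, 726 and 484 CPM in dE2 and 603, 523 and 465 in FL libraries. Tyms, thymidylate synthase, differed in shape, with 388, 415 and 410 CPM in dE2 and 328, 340 and 373 in FL libraries, so that dE2 library 3 was among the higher ones and the groups did not overlap. Its log2 fold change was 0.22 ± 0.12 (adjusted p = 0.291, edgeR). Tk1, thymidine kinase, was at 0.03 ± 0.12. Summed over the 4 genes, levels were 1992, 2189 and 1641 CPM in dE2 and 1752, 1707 and 1604 in FL libraries.

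In the chromatin assembly group and the cyclin E and E2F group the signs were mixed, again without passing the test. Chaf1a, E2f1, E2f2 and E2f7 were below 0 on the log2 scale, while Chaf1b, E2f8 and Ccne2 were not. Chaf1a and Chaf1b, subunits of the factor that places histones behind the fork, were at -0.19 ± 0.13 and 0.05 ± 0.15 on the log2 scale, and 52.5% of Chaf1a's exon bases are shared with Ubxn6 on the opposite strand. E2f7, an atypical E2F that represses E2F targets late in S phase, had 38.5, 36.2 and 38.2 CPM in dE2 libraries 1, 2 and 3, against 45.0, 45.0 and 45.9 in FL libraries 1, 2 and 3. The groups were well apart and each was tight, with a log2 fold change of -0.27 ± 0.11, an unadjusted p of 0.0299 and an adjusted p of 0.168 by edgeR's quasi-likelihood test; with library size alone it was -0.40 with an adjusted p of 0.0403. E2f2, an activating E2F, had 141, 139 and 158 CPM in dE2 and 172, 169 and 166 in FL libraries, also without overlap, at -0.21 ± 0.11 (adjusted p = 0.288, edgeR). E2f1, also an activator, was at -0.12 ± 0.13, and E2f8, the other atypical repressor, was at 0.00 ± 0.11 with 61.1, 65.2 and 60.9 CPM in dE2 and 63.5, 63.4 and 60.2 in FL libraries. Ccne2, a cyclin E that drives entry into S phase, had 86.4, 104 and 75.3 CPM in dE2 and 60.7, 74.9 and 80.3 in FL libraries, overlapping, at 0.30 ± 0.14 (adjusted p = 0.192, edgeR). The 5 genes of this group summed to 354, 365 and 358 CPM in dE2 and 368, 377 and 379 in FL libraries, a ratio of 0.957 without overlap.

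Counting each gene's libraries, dE2 lay wholly above FL in 8 of the 44 (18.2%), where 13.6% of all genes tested did, and wholly below in 3 (6.82%), where 13.5% did. For a single gene the exact permutation test over 3 against 3 libraries cannot go below 0.1. The 8 were Orc1, Orc6, Cdc6, Mcm10, Rfc2, Prim1, Fen1 and Tyms, and the 3 were Pold1, E2f2 and E2f7. The precision was high enough to bound most of the differences: the 95% interval of the fold change lay within 1.5-fold either way in 39 of 44 genes, against 48.7% of all genes, many of which have fewer counts. The other 5, whose intervals reached past 1.5-fold higher, were Orc1, Cdc6, Mcm10, Rpa1 and Fen1.

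The 3 dE2 libraries did not behave alike on these genes. Of the 44 genes, 31 in dE2 library 1 (70.5%) and 29 in dE2 library 2 (65.9%) were above all 3 FL libraries, but 10 in dE2 library 3 (22.7%), where the shares of all genes were 32.1%, 35.5% and 32.2%. In dE2 library 3, 15 of the 44 (34.1%) were below all FL libraries, close to the 32.8% of all genes. The median of the 44 relative to the FL mean was 0.17, 0.15 and -0.04 on the log2 scale in dE2 libraries 1, 2 and 3, against 0.00, 0.06 and -0.05 in FL libraries 1, 2 and 3. Library 3 also held the lowest value of its group for 32 of 44 genes in dE2 and for 27 of 44 in FL. Of all genes, 35.3% were lowest in library 3 of dE2 and 32.2% in library 3 of FL. The spread between libraries, as the SD of log2 CPM, was larger in dE2 than in FL for 38 of 44 genes (86.4%), and for 64.9% of all genes. The share of reads assigned to genes moved with this, at 75.4%, 75.5% and 69.3% in dE2 libraries 1, 2 and 3, against 70.3%, 71.5% and 69.3% in FL libraries 1, 2 and 3, and so did the share of reads that cross splice junctions, at 31.3%, 31.0% and 26.7% in dE2, against 26.6%, 28.1% and 26.4% in FL libraries; their part in the result was not tested. With dE2 library 3 as the lone dE2 sample, assumed to vary like the other libraries, the median of the 44 was -0.04 and 17 were above 0, while Orc1 was at 0.66 with an adjusted p of 0.0168 by edgeR. Without dE2 library 3, the genes past the same test were Orc1, Cdc6, Rpa1 and Fen1, with adjusted p of 0.0452, 0.0491, 0.0377 and 0.0107. For that fit the share of all genes that passed is not given, so these calls cannot set the list apart from genes in general.

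**Figure D4:**
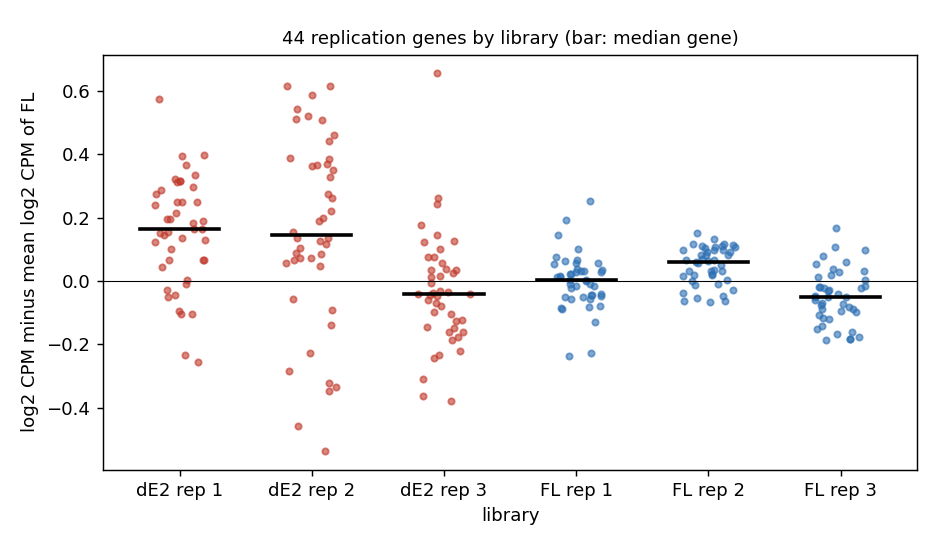
Each point is 1 of the 44 replication genes in 1 library, as log2 CPM minus the mean log2 CPM of the FL libraries (vertical axis), with a bar at the median gene of each library. The medians of dE2 libraries 1 and 2 are at 0.17 and 0.15, and that of dE2 library 3 at -0.04, beside 0.00, 0.06 and -0.05 in FL libraries 1, 2 and 3.

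Same-numbered libraries of dE2 and FL deviated together, so the comparison was also fitted with the replicate number as a block. In that fit 7 of the 44 genes were higher at an adjusted p under 0.05 (15.9%) and none was lower, where 11.5% of all genes were higher and 10.1% lower. The 7 were Orc1 (adjusted p = 5.03e-05, edgeR), Fen1 (0.00109), Mcm10 (0.00239), Cdc6 (0.00480), Rpa1 (0.0177), Ccne2 (0.0183) and Mcm4 (0.0487), and their log2 fold changes in this fit ran from 0.25 in Mcm4 to 0.53 in Orc1. With library size alone in the same fit, 1 of the 44 was higher, Orc1, and 4 were lower, Pold1, Chaf1a, E2f2 and E2f7. In that fit 2644 of the 14632 genes tested were lower, and the median of all genes was -0.14, so the 4 do not set the list apart. The difference within a pair had a median over the 44 genes of 0.17, 0.12 and 0.00 on the log2 scale for pairs 1, 2 and 3, and was above 0 in 33, 31 and 24 genes. It was above 0 in all 3 pairs for 18 of the 44 and below 0 in all 3 for 5, where the shares of all genes were 25.3% and 25.5%. The block leaves 2 residual degrees of freedom, so its spread is borrowed almost wholly from other genes.

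Among 87 further genes of the replication pathway, 2 were higher in dE2 cells (2.3%, where 3.75% of all genes tested were higher) and none was lower (2.43% of all genes were), and the median log2 fold change was 0.01. The share is no larger than that of genes in general. In the block fit 10 of the 87 were higher (11.5%) and 11 lower, near the shares of all genes in that fit, 11.5% and 10.1%. The 2 that passed were on the nucleotide synthesis list: Shmt1, a serine hydroxymethyltransferase that feeds one-carbon units to thymidylate synthesis, had 119, 143 and 105 CPM in dE2 and 83.2, 86.6 and 87.6 in FL libraries, and rose by 0.51 ± 0.12 (adjusted p = 0.0176, edgeR). Gart, an enzyme of purine synthesis, had 133, 156 and 124 CPM in dE2 and 99.1, 108 and 105 in FL libraries, and rose by 0.41 ± 0.12 (adjusted p = 0.0460, edgeR). Both calls were lost without any 1 of the FL libraries and without dE2 library 2, with adjusted p of 0.0550 to 0.250, and that of Gart also with library size alone (0.130), with upper quartile factors (0.0537) and with limma-voom (0.0642). Of the 20 further nucleotide synthesis genes, these 2 included, 17 were above 0 with a median of 0.15. The 13 further genes of the E2F, RB and cyclin E/A-CDK2 group had 11 below 0, where 7384 of the 14632 genes tested were. Their median was -0.22, and none passed the test. Of the 13, 6 lay wholly below FL (46.2%), where 13.5% of all genes did. In the block fit 5 of them, Ccna2, Rb1, Cdk2, Tfdp2 and Ccne1, were lower, where 10.1% of all genes were. The adjusted p of these 5 was 0.00362 to 0.0498 by edgeR, and they are named here after their values were seen. The remaining lists had medians of 0.00 for licensing and firing (16 genes), -0.05 for polymerases, RPA and Okazaki processing (10), -0.03 for fork protection and cohesion (8) and 0.12 for replication-coupled chromatin and repair (20), with none past the test.

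The lists for other stages of the cell cycle place these values. Of 30 mitosis and G2/M genes none passed the test, where 3.75% of all genes were higher and 2.43% lower. Their median log2 fold change was 0.05. At an unadjusted p under 0.05 by edgeR, 3 were higher (10%) and 1 lower (3.33%), against 11.7% and 10.8% of all genes. In the block fit 3 were higher (10%) and 2 lower, against 11.5% and 10.1% of all genes. Mki67, the proliferation marker, chosen here after its value was seen, had 1339 ± 121 CPM in dE2 and 1333 ± 118 in FL libraries (SD, n = 3 each). Of 9 G1 genes tested out of 14 listed, 2 rose and 2 fell, where 3.75% of all genes were higher and 2.43% lower. Cdkn1a, which encodes the CDK inhibitor p21, had 90.1, 70.6 and 73.1 CPM in dE2 and 47.1, 51.6 and 52.3 in FL libraries, and rose by 0.63 ± 0.12 on the log2 scale (adjusted p = 0.00427, edgeR). Cdk6, a G1 kinase, had 352, 346 and 330 CPM in dE2 and 222, 264 and 251 in FL libraries, and rose by 0.48 ± 0.12 (adjusted p = 0.0222, edgeR). Cdkn2c, an inhibitor of that kinase, fell by 0.70 ± 0.18 (adjusted p = 0.0331, edgeR), with 16.2, 13.1 and 13.2 CPM in dE2 and 30.4, 17.5 and 21 in FL libraries. Ccnd3, a D-type cyclin, fell by 0.42 ± 0.12 (adjusted p = 0.0435, edgeR), with 140, 107 and 127 CPM in dE2 and 165, 170 and 164 in FL libraries. Cdkn1a passed in each setting run, at an adjusted p of at most 0.043, while Cdk6, Cdkn2c and Ccnd3 were each lost without FL library 1 (0.152, 0.201 and 0.124), FL library 3 (0.0670, 0.0562 and 0.105) and dE2 library 2 (0.10, 0.233 and 0.230), Cdk6 and Ccnd3 without FL library 2 (0.0506 and 0.129), and Cdkn2c and Ccnd3 without dE2 library 3 (0.115 and 0.0530). With library size alone Cdk6 was also lost (0.0629), and with limma-voom Cdkn2c (0.0645) and Ccnd3 (0.0555).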

How the data were processed

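Polyadenylated RNA of 3 dE2 and 3 FL libraries was sequenced, and the deposited table holds raw gene counts of both groups. Reads were handled with bcl2fastq, STAR 2.5, featureCounts of Subread 1.5.1 and edgeR 3.20.8 on mm10, per the submitters' processing notes. For the annotation release and strand setting, none was stated by any source used. The authors' deposited table also gives their log2 fold change, p-value and false discovery rate (FDR), and a mapping table gives reads assigned to genes and junctions. The genes carry GENCODE-style identifiers, and all 44 matched GENCODE M21, used for exon overlaps. The mapping table lists sense and antisense reads in like shares, so the counts were read as unstranded.

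Libraries held 13307155 to 16140432 counts, and intervals cover the fitted spread between libraries. The counts were tested with edgeR 4.0.16 in R 4.3.3: filterByExpr (14632 of 14777 genes kept, 145 dropped), TMM composition factors, the robust quasi-likelihood test of dE2 against FL over all genes, and Benjamini-Hochberg adjustment at 0.05. Standard errors are the log2 fold change over the root of F. CPM use the TMM factors, and FPKM divide them by the deposited exon length. The test was tried on simulated counts. Alternatives were a replicate block, other scalings, filters and a stricter threshold of 0.01, DESeq2 1.42.0, limma 3.58.1 voom, the likelihood ratio test and leaving out each library. Libraries that share a number deviated together (correlations 0.39, 0.21 and 0.19, against -0.29 to 0.10 for other numbers, with 0.1 as the threshold), which is the source of the pairing; the labels name no shared litter or day. RefSeq windows of GRCm38.p6 gave the sequences, and 8 genes had none. The 44 genes, the lists and the tests were chosen with earlier results of these data known. All 44 genes are named, and of the other lists those past the threshold, up to 4 each with the smallest p, unless said otherwise.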

Additional observations from a re-analysis of the deposited data

How the results depend on the processing

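With the replicate block 1678 genes were higher and 1471 lower, against 548 and 355 without it; 7 replication genes were higher, against 1, and 10 pathway genes were higher and 11 lower, against 2 and 0. Of the mitosis and G1 genes 5 were higher and 4 lower, against 2 and 2. The block changed no other call on the 44 genes. With library size only, 264 genes were higher and 954 lower; 0 replication genes were higher and 1 lower (E2f7), 1 pathway gene was higher and 9 lower, 1 comparison gene was higher, and the median of the 44 was -0.027, with that of all genes at -0.14. With the replicate block and library size only, chosen after seeing the data, 2644 genes were lower, as were 4 replication genes, 22 pathway genes (4 higher) and 7 comparison genes, and the median was -0.027. With dE2 libraries 1 and 2 both left out, also chosen after seeing the data, 247 genes were higher and 113 lower, 0 pathway genes were higher, 1 comparison gene was higher and 0 lower, and the median was -0.042. DESeq2 called 2 replication genes higher (Orc1 and Mcm10), and the likelihood ratio test 2 (Orc1 and Fen1). With limma-voom 227 genes were lower, 1 pathway gene was higher and 0 comparison genes were lower. Upper quartile factors gave 1 pathway gene higher and 1 lower, and a filter at 5 CPM gave 1 lower. At an adjusted p under 0.01, 184 genes were higher, 57 lower and 0 replication genes were higher. The cause of these differences was not tested.

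Leaving out 1 library at a time gave 125 to 780 genes higher and 51 to 587 lower. Over these fits 0 to 4 replication genes were higher and 0 lower, 0 to 4 pathway genes were higher and 0 to 1 lower, 1 to 4 comparison genes were higher and 0 to 3 lower, and the median of the 44 was 0.061 to 0.17. The lowest counts of genes came without dE2 library 2 (125 and 51), and the 4 replication genes came without dE2 library 3. Orc1 was above 0 in each setting run, while Mcm4 and Rpa1, both called with the replicate block and Rpa1 also without dE2 library 3, were at -0.0081 and -0.030 with dE2 libraries 1 and 2 both left out. Depth and spread leave 95% intervals within 1.5-fold either way for 39 of the 44 genes. Exon overlap without strand limits Fen1, Gins2 and Chaf1a.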

Other observations

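The letters in the start windows differed between the replication genes and the genes of mitosis. The CHR letters TTTGAA, on either strand, were in 7 of the 36 replication genes with a window (19.4%), against 18 of 25 mitosis and G2/M genes (72.0%) and 14.5% of the tested genes. The E2F letter strings TTTCCCGC, TTTCGCGC, TTTGCCGC and TTTGGCGC were in 15 of the 36 (41.7%), against 1 of the 25 (4.0%), and in 19 of 69 further replication pathway genes (27.5%). The letters CCAAT were in 24 of the 36 (66.7%), against 20 of the 25 (80.0%) and 43.0% of the tested genes, and the GC box GGGCGG was in 28 of the 36 (77.8%), against 22 of the 25 (88%) and 67.5% of the tested genes. Within the replication genes the E2F strings were in 3 of 4 licensing genes and 4 of 6 MCM genes with a window, and in 0 of 4 nucleotide synthesis genes. These are counts of letters in the reference sequence and do not depend on the libraries.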
